A study of Arabidopsis thaliana with 39 samples.

Results

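The comparison described here is rosettes of the Arabidopsis thaliana line 35S::SLIM1 #25 against rosettes of the wild type Col-0 at 37 days after sowing (DAS), with 3 RNA-seq libraries on each side, 6 of the 39 in the series. Its members are all 20296 genes that passed a filter on low counts, out of 33110 in the count table. In 35S::SLIM1 #25 the coding sequence of SLIM1 is driven by the constitutive 35S promoter of cauliflower mosaic virus, and T2 seedlings were selected on hygromycin, which Col-0 seedlings were not. At 37 DAS there were 4 groups of 3: Col-0, slim1-cr (a CRISPR deletion in SLIM1), and the independent overexpression lines 35S::SLIM1 #17 and #25. The Col-0 and #25 libraries of 30 and 44 DAS (3 each per day) serve only to place the 37 DAS difference in time. The fits for those days also hold the slim1-cr and #17 libraries. At 30 DAS they hold 3 libraries of EV, which is Col-0 transformed with the empty vector. All plants were untreated and grown in long days, the flower stalk was cut off minutes before each rosette was frozen, and plants were sampled by day and not by developmental stage, so a difference between genotypes and a difference in stage at 37 DAS cannot be told apart.

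SLIM1, also called EIL3, belongs to the EIN3/EIL family of transcription factors, whose other members carry the ethylene signal in the nucleus. SLIM1 is known as the regulator of the response to sulfur deficiency, in which sulfate uptake rises and synthesis of sulfur-rich glucosinolates is repressed. A rosette that has bolted ages leaf by leaf: NAC and WRKY factors rise, chloroplast genes fall, and nutrients are exported. Other genes respond within minutes to touch, wounding or cold, and clock genes follow the time of day.

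The 12 libraries at 37 DAS held 38683578 to 46083362 counts each, and the median difference over all genes was -0.01 on the log2 scale. Values are in CPM, counts divided by library size after TMM scaling, and differences are log2 (#25 over Col-0) with their standard error from edgeR. A gene was called at a Benjamini-Hochberg adjusted p under 0.05 from edgeR's quasi-likelihood test. The library Col-0 1 stood apart from Col-0 2 and 3: the summed level of 28 jasmonate genes was 2173 CPM in it, 10597 and 14295 CPM in Col-0 2 and 3 and 4078 to 8397 CPM in #25, and that of 15 flower markers was 72.3 CPM against 10.1 and 17.5 CPM, with 21.9 to 45.2 CPM in #25. In slim1-cr 2 the shift was alike: jasmonate genes summed to 1642 CPM, against 7984 and 12195 CPM in slim1-cr 1 and 3. Flower markers summed to 51.2 CPM, against 7.20 and 8.10 CPM. On the log2 CPM scale Col-0 1 correlated with slim1-cr 2 at 0.982, and with Col-0 2 and 3 at 0.961 and 0.960. The 12 libraries share the estimate of the spread. Nothing in the sources used here says whether the 3 libraries of a group came from more than separate plants, so p-values measure the spread between these samples.

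SLIM1 itself (AT1G73730, TAIR10 chromosome 1, 27730031 to 27732683) was measured at 21.5, 23.1 and 23.4 CPM in Col-0 and at 176, 198 and 208 CPM in #25. The groups were far apart and each was tight. The difference was 3.097 ± 0.21 (SE, adjusted p = 9.62e-06), or 8.56-fold. In slim1-cr the mean was 1.84 ± 0.68 CPM and in #17 341 ± 49.0 CPM (SD, n = 3). SLIM1 was thus lower in #25 than in #17, by -0.81 (adjusted p = 0.031), and this call held in 1 of the 6 fits that left out 1 library of either line, where the adjusted p reached 0.119. Reads of the transgene and of the endogenous gene are counted together.

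Of the 20296 genes, 2541 (12.5%) were higher and 1977 (9.74%) were lower in #25 than in Col-0. The higher genes moved further: 1040 of them exceeded 2-fold, 349 exceeded 4-fold and 98 exceeded 8-fold, against 425, 82 and 29 of the lower genes. The median difference was 0.85 among the higher and -0.60 among the lower genes. All 3 #25 libraries lay above all 3 Col-0 libraries for 2531 of the higher genes, and below them for 1933 of the lower genes (21.4% and 19.2% of all genes tested had no overlap in these directions). With library size alone as the scale, the median over all genes was -0.14 and the split was 1843 higher and 3334 lower, so counts of lower genes depend on the scaling.

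**Figure D1:**
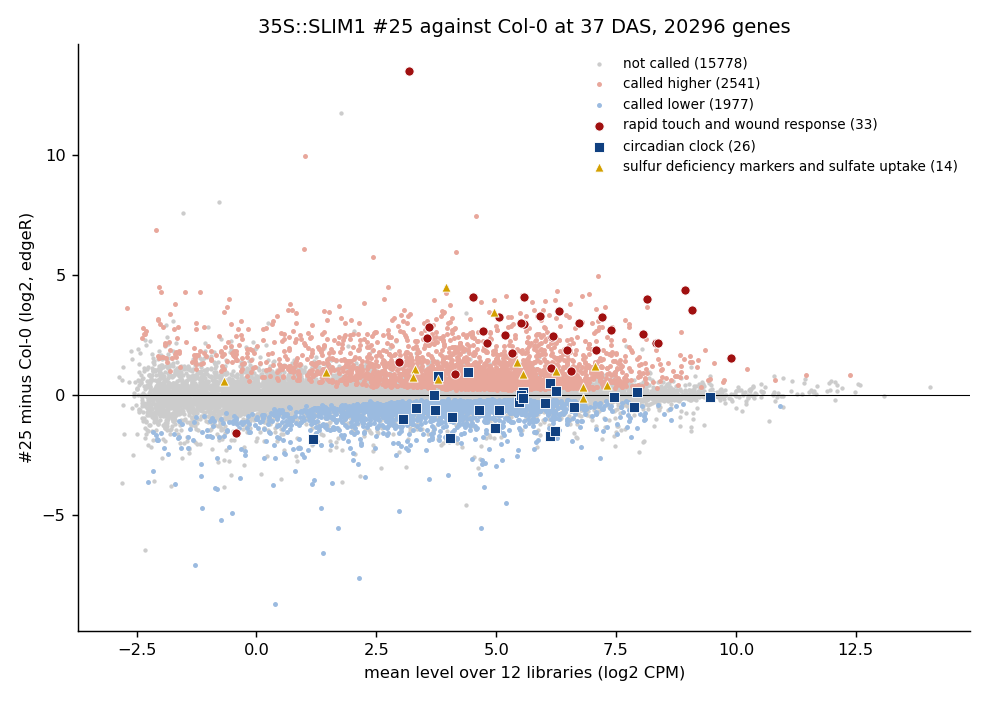
Difference between 35S::SLIM1 #25 and Col-0 at 37 DAS (log2, edgeR, vertical axis) against the mean level over 12 libraries (log2 CPM, horizontal axis) for all 20296 genes. The 33 touch and wound genes lie mostly above 0, most of the 26 clock genes at or below 0, and the 14 sulfur genes at or above 0.

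Among the 31 gene lists with 10 or more members tested, cell type markers aside, the rapid touch and wound response had the largest median difference. The lists were written with earlier results of these data known, so this rank and the counts are descriptions and not independent tests. Of its 33 genes, 29 (87.9%) rose in #25 and none fell, against 12.5% and 9.74% of all genes. Their median difference was 2.54. In summed level the list stood at 1534 to 2127 CPM in Col-0, 876 to 1077 CPM in slim1-cr, 5018 to 6763 CPM in #17 and 8925 to 11256 CPM in #25, with no overlap between any of the 4 groups. The 4 members that were not called were RRTF1 (2.99, adjusted p = 0.073), ERF4 (1.13, adjusted p = 0.050), ERF2 (0.97, adjusted p = 0.067) and CML39 (-1.58, adjusted p = 0.361), named after their values were seen. In all fits with other settings or with 1 library left out, 27 to 32 members were called higher.

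TCH4 (AT5G57560, chromosome 5, 23307006 to 23308680), a xyloglucan-modifying enzyme of the cell wall known for its response to touch, was at 59.1, 108 and 23.1 CPM in Col-0 and at 1047, 1459 and 1409 CPM in #25. The #25 libraries were close to each other and all far above the highest Col-0 library, Col-0 2. The difference was 4.37 ± 0.51 (adjusted p = 0.000224). SZF1, a tandem zinc finger protein of the salt and elicitor response, was at 52.0, 68.3 and 37.2 CPM in Col-0 and at 764, 910 and 849 CPM in #25, a difference of 4.00 ± 0.29 (adjusted p = 1.49e-05). ERF6, an ethylene response factor that acts in stress signalling in growing leaves, was at 5.02, 4.27 and 2.46 CPM in Col-0 and at 68.2, 55.5 and 73.8 CPM in #25, a difference of 4.07 ± 0.25 (adjusted p = 5.41e-06). For both genes the spread within a group was small beside the gap between the groups.

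DREB26, another factor of the AP2/ERF family, was at 7.96, 12.2 and 2.78 CPM in Col-0 and at 92.7, 124 and 167 CPM in #25 (4.07 ± 0.56, adjusted p = 0.000617). HSPRO2, an immune and energy-stress gene, was at 94.5, 150 and 97.4 CPM in Col-0 and at 1204, 1495 and 1265 CPM in #25 (3.54 ± 0.21, adjusted p = 4.33e-06). In both genes the groups were separate by a wide margin. The zinc finger repressor STZ (3.25 ± 0.31), the ethylene-responsive repressor ERF11 (3.26 ± 0.52), the defence regulator WRKY33 (2.69 ± 0.24), the calmodulin-like TCH2 (2.46 ± 0.21) and TCH3 (1.55 ± 0.16), and the kinase gene MPK3 (2.15 ± 0.16) rose too, with adjusted p of 6.22e-05, 0.00147, 3.90e-05, 2.91e-05, 9.19e-05 and 1.70e-05. These 6 were chosen after their values were seen. TCH2 and TCH3 overlap a gene on the opposite strand over 34.3% and 31.0% of their length, and the sources used here do not state whether counting used strand.

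Genes outside the list moved in the same way. PHI-1, a phosphate- and brassinosteroid-responsive gene, was at 9.47, 26.4 and 3.97 CPM in Col-0 and at 324, 491 and 434 CPM in #25 (4.97 ± 0.60, adjusted p = 0.000247). NUDT4, of the Nudix hydrolase family, was at 5.41, 8.10 and 4.14 CPM in Col-0 and at 67.5, 98.7 and 107 CPM in #25 (3.96 ± 0.30, adjusted p = 1.70e-05). Among the lowest p-values were PUP14, a cytokinin transporter (2.95 ± 0.17, adjusted p = 4.29e-06), EXO70B1, an exocyst subunit (1.95 ± 0.11, adjusted p = 4.33e-06), and the heat shock factor HSFB2A (2.28 ± 0.13, adjusted p = 4.33e-06). PUP14 was at 50.2 to 71.5 CPM in Col-0 and 468 to 505 CPM in #25, EXO70B1 at 56.0 to 65.6 and 221 to 247 CPM, and HSFB2A at 5.46 to 6.89 and 27.0 to 32.6 CPM, all without overlap. PGAZAT, a polygalacturonase gene known from organ abscission, was at 0.11 to 0.34 CPM in Col-0 and at 8.54, 24.1 and 2.79 CPM in #25 (5.74 ± 1.34, adjusted p = 0.012), with a wide spread between the #25 libraries. BT2, a BTB scaffold protein linked to nutrient and sugar signals, was at 8.99, 21.3 and 6.11 CPM in Col-0 and at 253, 137 and 338 CPM in #25 (4.33 ± 0.79, adjusted p = 0.00305).

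**Figure D2:**
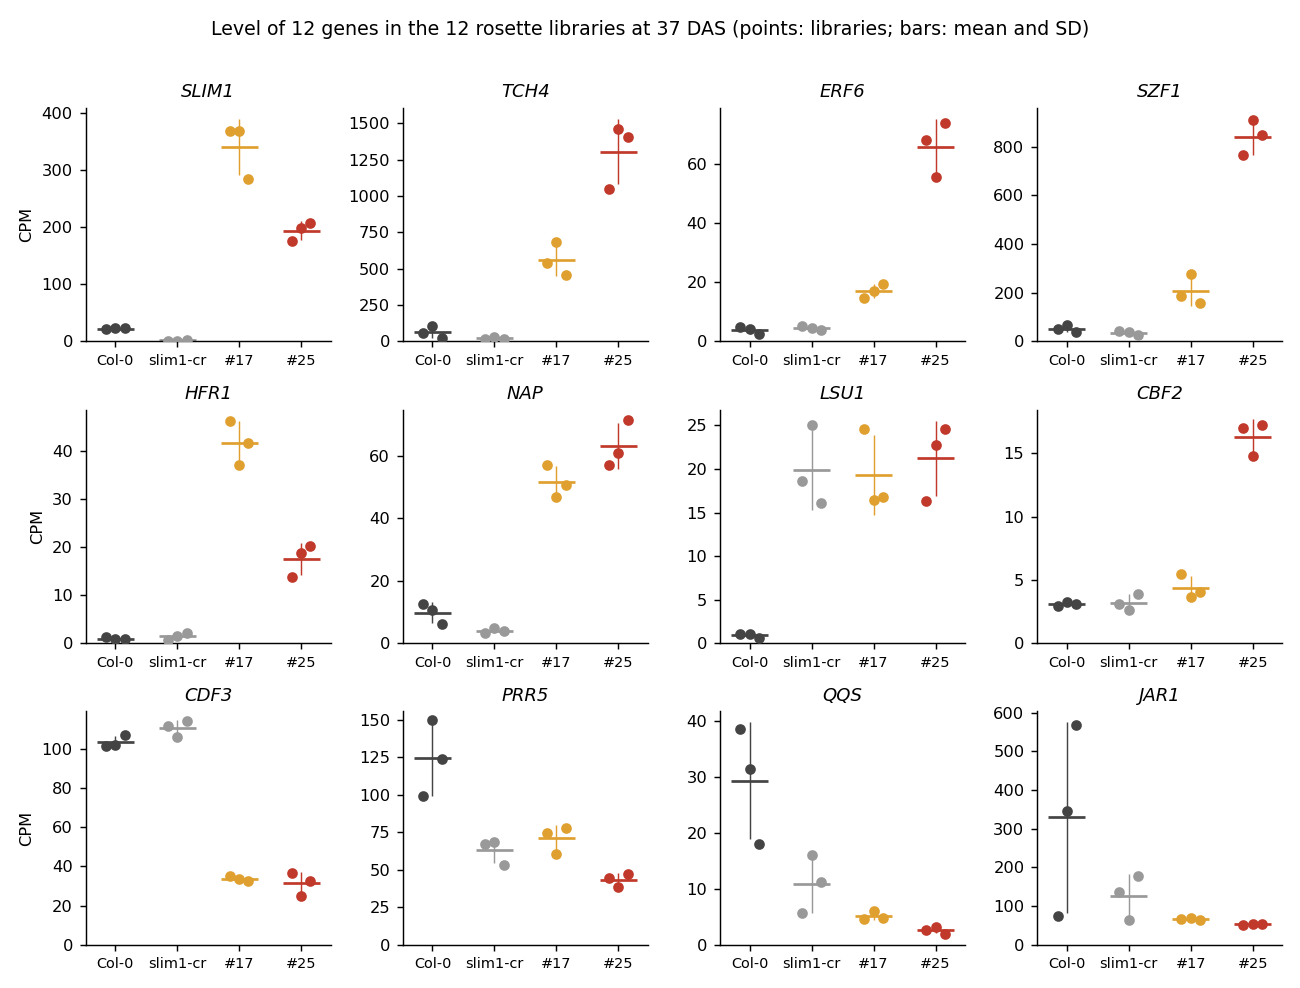
Level in CPM (vertical axes, starting at 0) of 12 genes in the 3 libraries of each group at 37 DAS; points are libraries, horizontal bars means and vertical bars SDs (n = 3). TCH4, ERF6 and SZF1 are highest in #25, LSU1 is low only in Col-0 among the 4 groups plotted, and JAR1 has a wide spread in Col-0 (73.6 to 568 CPM).

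The letters in front of these genes were read for motifs of known factors. In the 250 bases before the annotated gene start, on both strands, the GCC box GCCGCC, a site known for ERF factors, was in 6 of the 33 touch genes (18.2%) against 1.88% of the 20280 promoters of tested genes. Among all higher genes its share was 2.16% and among all lower genes 2.07%, both near that of all promoters. The W box core TTGAC of WRKY factors was in 63.6% against 45.1%, and in 50.3% of all higher and 42.8% of all lower genes. The rapid stress response element CGCGTT was in 1 of the 33 (3.03%) against 2.87% of all, while it was in 4.88% of all higher and 1.87% of all lower genes. The G box CACGTG was in 15.2% of the touch genes, 8.07% of all higher, 7.13% of all lower and 7.33% of all genes. The sulfur-responsive core GAGAC was in 24.2%, 24.8%, 25.4% and 25.3% of these sets, in the same order. Of the 14 sulfur genes 21.4% carried it, and of the 8 called higher 12.5%. The letters AAAGC were in 33.3%, 41.4%, 44.2% and 44.1% of the sets. These are matches of letters and not measured sites. The 3 called touch genes with a GCC box and the largest difference are shown to place the box beside their values. The sequences are from the RefSeq copy of TAIR10, written 5′ to 3′ on the strand of the gene, and the capitals mark the box in either orientation:
ERF11 (chr1:9956981-9957230, minus strand): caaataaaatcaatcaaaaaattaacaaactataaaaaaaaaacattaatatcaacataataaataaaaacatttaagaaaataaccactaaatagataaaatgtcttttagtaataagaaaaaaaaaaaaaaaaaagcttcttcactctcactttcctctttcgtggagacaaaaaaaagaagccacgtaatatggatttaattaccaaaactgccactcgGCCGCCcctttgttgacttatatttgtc
STZ (chr1:9649324-9649573, minus strand): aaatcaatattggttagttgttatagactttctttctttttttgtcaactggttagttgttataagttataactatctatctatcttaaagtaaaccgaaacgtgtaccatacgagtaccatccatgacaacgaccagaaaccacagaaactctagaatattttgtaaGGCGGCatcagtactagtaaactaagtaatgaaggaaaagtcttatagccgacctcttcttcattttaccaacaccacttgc
WRKY33 (chr2:16107985-16108234, plus strand): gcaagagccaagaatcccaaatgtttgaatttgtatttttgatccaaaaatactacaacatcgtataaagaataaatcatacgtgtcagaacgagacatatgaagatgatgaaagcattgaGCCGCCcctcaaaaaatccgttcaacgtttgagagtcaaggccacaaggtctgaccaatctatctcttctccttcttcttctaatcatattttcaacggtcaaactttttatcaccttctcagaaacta
The box begins 28 bases before the start in ERF11, 82 in STZ and 129 in WRKY33, and lies on the opposite strand in STZ.

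In 5 genes the change is uncertain because the gene lies within, or almost within, another gene. ERF105 had 0 counts in all 3 Col-0 libraries and 1120 to 2008 counts in #25, at least 330-fold higher in its lowest library against a floor of 3 counts per library; it was at 0 in 35 of the 39 libraries. All of its 965 bases lie in AT5G51180, on the opposite strand, which had 1149 to 1421 counts in Col-0 and 1972 to 1984 in #25. Its adjusted p of 0.031 rose to between 0.053 and 0.080 when any 1 of the 6 libraries was left out. CML30, a calmodulin-like gene inside AT2G15690, had 0 counts in Col-0 and 111 to 137 in #25, at least 32.7-fold higher, and was at 0 in 21 of the 39 libraries. ADT6, of the arogenate dehydratase family, had 271 to 482 counts in Col-0 and 0 to 5 in #25 (-7.67 ± 0.85, adjusted p = 0.000153, and -11.54 without #25 2), and 1756 of its 1834 bases overlap AT1G08260. CYP81F4, of indole glucosinolate modification, was at 5.00, 74.3 and 81.8 CPM in Col-0 and at 0.88 to 4.42 CPM in #25 (-4.53 ± 1.35, adjusted p = 0.034). Col-0 1 was close to #25, and leaving out any other of the 6 libraries gave an adjusted p between 0.061 and 0.118. AT4G37409, which covers 99.6% of CYP81F4, had only 0 to 6 counts in Col-0 and 0 to 3 in #25. UGT73C6, a flavonol glycosyltransferase gene covered by AT2G36792, was at 2.101 to 5.43 CPM in Col-0 and 10.04 to 17.7 CPM in #25 (2.08 ± 0.36, adjusted p = 0.00232), while AT2G36792 had 0 counts in all 6 libraries.

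Of 26 clock genes, 12 (46.2%) fell, 3 (11.5%) rose and 11 were not called, with a median of -0.43. Of all genes 9.74% were lower and 12.5% higher, so the share of clock genes that rose was near that of all genes. With other settings or 1 library left out, 8 to 15 were called lower and 3 higher in every fit. The 3 that rose, named after their values were seen, were LHY (0.97 ± 0.19), CDF2 (0.77 ± 0.10) and RVE4 (0.51 ± 0.12), with adjusted p of 0.00447, 0.000387 and 0.0103. LHY is a morning factor of the central loop. Its partner CCA1 differed by 0.11 and the evening gene TOC1 by 0.14, and neither was called.

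CDF3 (AT3G47500, chromosome 3, 17503883 to 17506124), a DOF factor that represses flowering, was at 102, 102 and 107 CPM in Col-0 and at 36.7, 24.8 and 32.4 CPM in #25. The Col-0 libraries were nearly equal and all above #25, and the difference was -1.73 ± 0.12 (adjusted p = 1.16e-05). FKF1, the blue light receptor that marks CDF proteins for removal, was at 27.9, 42.1 and 23.8 CPM in Col-0 and at 8.44, 8.66 and 9.82 CPM in #25 (-1.80 ± 0.32, adjusted p = 0.00253). PRR5, a pseudo-response regulator that acts in the afternoon, was at 99.2, 150 and 124 CPM in Col-0 and at 44.2, 38.5 and 47.0 CPM in #25 (-1.52 ± 0.17, adjusted p = 0.000129). All 3 genes were without overlap. PRR9, its morning relative, fell from 44.3 to 51.1 CPM in Col-0 to 17.9 to 18.8 CPM in #25 (-1.38 ± 0.23, adjusted p = 0.00182). RVE2 fell by 1.85 ± 0.38 (adjusted p = 0.00568) at 3.098 to 5.68 CPM in Col-0. ELF4, a part of the evening complex, was at 9.85 to 18.7 CPM in Col-0 and 5.94 to 6.68 CPM in #25 (-1.03 ± 0.27, adjusted p = 0.020). Its call was lost without Col-0 2, when the difference was -0.68 (adjusted p = 0.073), and without #25 1, 2 or 3 (adjusted p 0.069, 0.056 and 0.057). The time of day of each harvest is not given in the sources used here.

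The evening element core AAATATCT, a site of clock factors of the MYB type, was in 5 of the 12 clock genes that fell (41.7%), in 7 of all 26 (26.9%) and in 5.10% of all promoters. It was in 6.47% of all lower genes. The 2 with the largest fall are shown, from the same source, with the element in capitals in either orientation:
FKF1 (chr1:25508389-25508638, plus strand): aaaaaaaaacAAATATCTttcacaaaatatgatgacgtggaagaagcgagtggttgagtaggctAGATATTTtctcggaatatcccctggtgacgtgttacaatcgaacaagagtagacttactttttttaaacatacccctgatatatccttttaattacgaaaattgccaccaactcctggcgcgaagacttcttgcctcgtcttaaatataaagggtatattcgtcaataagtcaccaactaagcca
PRR5 (chr5:8358547-8358796, minus strand): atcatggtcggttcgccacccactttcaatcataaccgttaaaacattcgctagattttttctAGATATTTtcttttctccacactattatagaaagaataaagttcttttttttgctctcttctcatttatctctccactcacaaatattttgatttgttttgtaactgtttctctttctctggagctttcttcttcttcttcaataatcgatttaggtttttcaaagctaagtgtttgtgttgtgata
FKF1 carries the element at 2 positions, 240 and 186 bases before the start, and PRR5 at 1, 187 bases before it. The G box CACGTG was in 34.6% of the 26 clock genes and in 33.3% of the 12 that fell, against 7.33% of all promoters.

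Of 19 genes of light and shade signalling, 9 (47.4%) rose, none fell and 10 were not called (median 0.37). Of all genes 12.5% were higher and 9.74% lower. HFR1, a bHLH protein that restrains shade growth, was at 1.19, 0.77 and 0.83 CPM in Col-0 and at 13.9, 18.7 and 20.3 CPM in #25 (4.24 ± 0.36, adjusted p = 3.10e-05). It was higher still in #17, at 41.7 ± 4.64 CPM. HB-2, the shade-induced homeobox gene, was at 11.02, 9.69 and 10.9 CPM in Col-0 and at 38.2, 38.4 and 40.0 CPM in #25 (1.88 ± 0.10, adjusted p = 4.29e-06), among the lowest p-values of the comparison. The libraries within each group were almost equal. The auxin-response genes IAA29 (2.55 ± 0.35, adjusted p = 0.000586) and IAA19 (1.57 ± 0.15, adjusted p = 7.15e-05) rose as well. So did the phytochrome-interacting factors PIF5 (1.16 ± 0.10), PIF1 (1.08 ± 0.18) and PIF4 (0.87 ± 0.12), named after their values were seen, with adjusted p of 2.71e-05, 0.00206 and 0.000465. In the family of xyloglucan-modifying wall enzymes, 8 of 17 (47.1%) rose and none fell (median 1.03). Among them were XTH17 (3.30 ± 0.32), XTH19 (2.74 ± 0.47), XTH23 (2.51 ± 0.55) and XTH33 (2.29 ± 0.41), with adjusted p of 6.01e-05, 0.0022, 0.00846 and 0.00276. That count was 5 without Col-0 3 and without #25 3.

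**Figure D3:**
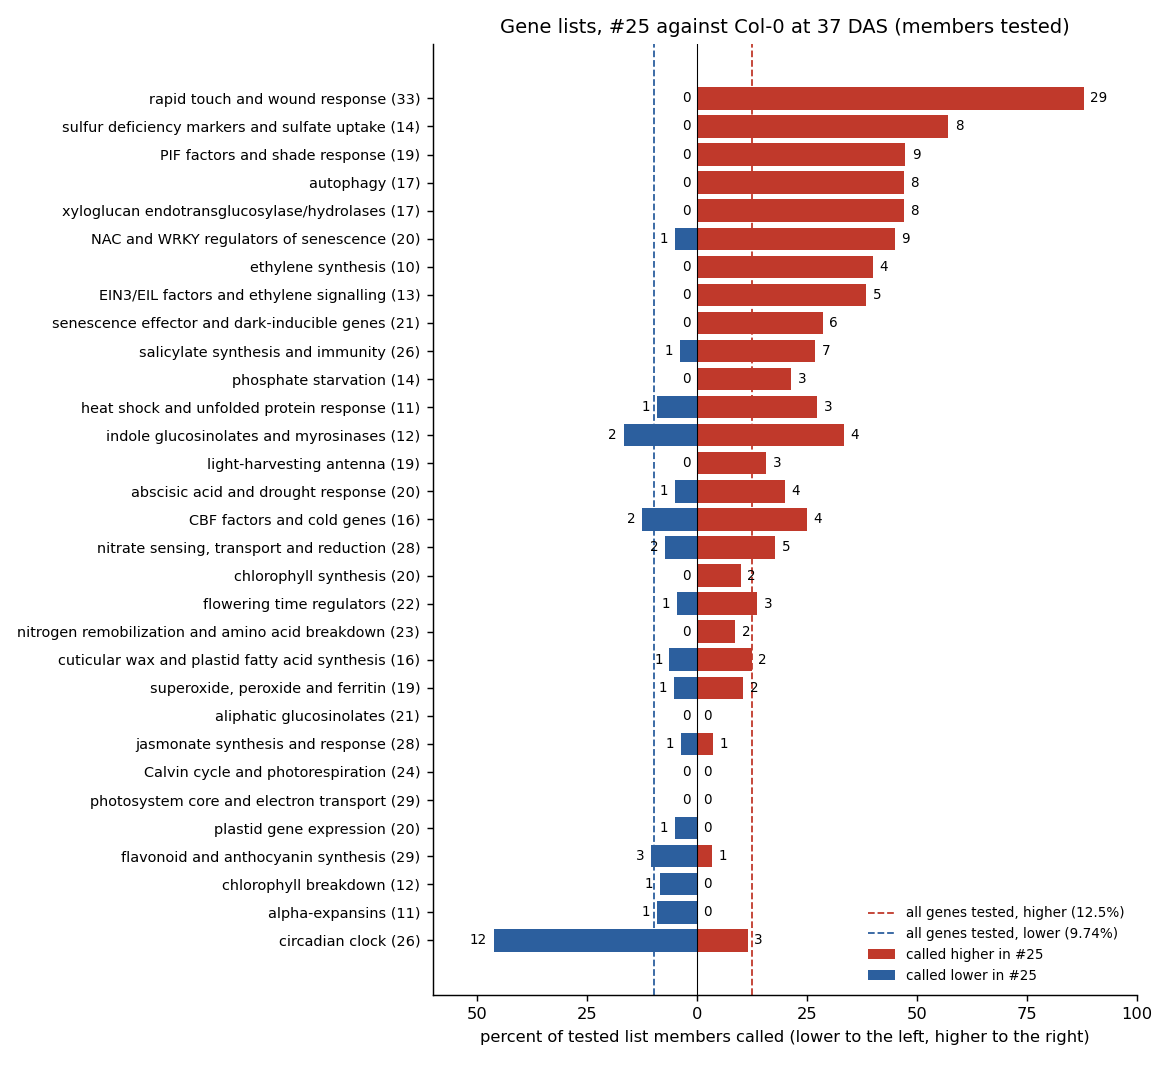
Percent of the tested members of 31 gene lists (rows, number of members tested in brackets) that were called higher (right, red) or lower (left, blue) in #25 than in Col-0 at 37 DAS, with the number called at each bar and dashed lines at 12.5% and 9.74% for all genes tested. The touch and wound list reaches 29 of 33 on the right and the clock list 12 of 26 on the left.

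Sulfur genes, the known domain of SLIM1, rose in part: 8 of 14 (57.1%) rose and none fell (median 0.89). In all other fits 8 or 9 rose. Of all genes 12.5% were higher and 9.74% lower. LSU1 (AT3G49580, chromosome 3, 18374908 to 18375940), a marker of sulfur deficiency, was at 1.0997, 1.05 and 0.64 CPM in Col-0 and at 16.3, 22.8 and 24.5 CPM in #25 (4.51 ± 0.29, adjusted p = 7.27e-06). Its relative LSU3 was at 2.74, 3.65 and 2.398 CPM in Col-0 and at 23.9, 39.8 and 31.5 CPM in #25 (3.44 ± 0.20, adjusted p = 4.33e-06). Col-0 was the low group: in slim1-cr, which lacks most SLIM1 mRNA, LSU1 was at 19.9 ± 4.61 CPM and LSU3 at 48.2 ± 3.99 CPM (SD, n = 3), higher than Col-0 by 4.42 (adjusted p = 7.76e-05) and 4.05 (adjusted p = 1.25e-05). GGCT2;1, which recycles glutathione, was at 10.2 to 20.2 CPM in Col-0, 28.4 to 43.5 CPM in #25 (1.37 ± 0.26, adjusted p = 0.00412) and 88.8 ± 15.6 CPM in slim1-cr. APR1, which reduces activated sulfate, was at 55.5 to 62.9 CPM in Col-0 and 119 to 151 CPM in #25 (1.19 ± 0.25, adjusted p = 0.00662), and at 184 ± 65.0 CPM in slim1-cr. The root sulfate transporter gene SULTR1;2, named after its values were seen, differed by 1.06 ± 0.17 (adjusted p = 0.00127) at 5.01 to 5.61 CPM in Col-0. The #25 and slim1-cr contrasts share the Col-0 libraries.

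Of 20 NAC and WRKY regulators of leaf senescence, 9 (45%) rose, 1 (5%) fell and 10 were not called (median 0.68). Of all genes 12.5% were higher and 9.74% lower. NAP, a NAC factor that promotes senescence, was at 12.6, 10.7 and 6.05 CPM in Col-0 and at 57.0, 61.0 and 71.4 CPM in #25 (2.69 ± 0.24, adjusted p = 4.12e-05). NAC055 was at 2.54, 7.28 and 5.41 CPM in Col-0 and at 20.6, 49.8 and 28.2 CPM in #25 (2.699 ± 0.45, adjusted p = 0.00185). Both were without overlap. ANAC092 (ORE1), a central regulator of age-dependent senescence, rose from 4.50 to 7.43 CPM in Col-0 to 17.8 to 24.1 CPM in #25 (1.78 ± 0.24, adjusted p = 0.000502), and WRKY22 (2.399 ± 0.23), ORS1 (1.79 ± 0.28) and WRKY53 (1.62 ± 0.21, with 21.1% of its length shared with a gene on the opposite strand) rose too, with adjusted p of 6.22e-05, 0.00134 and 0.000445. WRKY53 was chosen after its values were seen, as was VNI2, a NAC repressor that fell by 0.76 ± 0.17 (adjusted p = 0.00879) and was the only member called lower.

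Of 21 senescence effector and dark-inducible genes, 6 (28.6%) rose and none fell, against 12.5% and 9.74% of all genes. DIN2, a dark-inducible glucosidase gene, was at 0.52, 3.19 and 1.08 CPM in Col-0 and at 11.4, 23.04 and 9.01 CPM in #25 (3.20 ± 0.70, adjusted p = 0.00833). SAG21 (1.49 ± 0.24, adjusted p = 0.00143) and SAG20 (1.21 ± 0.18, adjusted p = 0.00112) rose. SAG12, a cysteine protease gene used as a marker of advanced senescence, was at 0.80, 0.05 and 4.94 CPM in Col-0 and at 5.94, 45.4 and 10.97 CPM in #25, a difference of 3.40 ± 1.24 (adjusted p = 0.075) that was not called. Without Col-0 3 it was 5.53 (adjusted p = 0.040), and without #25 2 it was 2.102 (adjusted p = 0.285). Of 17 autophagy genes, 8 (47.1%) rose and none fell. They were led by ATG8E (0.96 ± 0.20, adjusted p = 0.00677) and ATG8H (0.77 ± 0.14, adjusted p = 0.00334), which code for the ubiquitin-like coat of the autophagosome. That count was 4 with library size alone, 4 without Col-0 3, 4 without #25 3, and 5 without Col-0 2 or #25 2. None of 12 genes of chlorophyll breakdown rose, and 1 (8.33%) fell. That was CLH2, a chlorophyllase gene named after its values were seen, which shares 47.7% of its length with a gene on the opposite strand.

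Most chloroplast genes were not called at this age. Among 29 genes of the photosystem core and electron transport and 24 of the Calvin cycle and photorespiration none was called. Of 19 light-harvesting genes 3 (15.8%) were higher, and of 20 genes of chlorophyll synthesis 2 (10%) were higher (HEMA1 and PORB). Among 20 genes of plastid gene expression 1 (5%) was lower (PTAC2, named after its values were seen). Of all genes 12.5% were higher and 9.74% lower. The light-harvesting genes were LHCB2.3 (1.33 ± 0.34), LHCB1.1 (0.83 ± 0.26) and LHCB4.2 (0.61 ± 0.19), with adjusted p of 0.016, 0.044 and 0.041. LHCB1.1 was at 4000 to 4251 CPM in Col-0 and 6421 to 8152 CPM in #25, but was not called when any 1 of the 6 libraries was left out (adjusted p 0.061 to 0.123), with library size alone (0.065) or with no filter on low counts (0.0502). LHCB4.2 was called in 1 of those 6 fits, that without #25 2, and LHCB2.3 in 4, all but those without Col-0 2 and #25 1. The list count was 1 with library size alone and 0 to 3 when 1 library was left out: 1 without Col-0 1, Col-0 3 or #25 3, and 0 without Col-0 2 or #25 1. LHCB2.3 shares 37.6% of its length with a gene on the opposite strand. HEMA1, which feeds the first committed step of chlorophyll synthesis, was at 288 to 325 CPM in Col-0 and 568 to 680 CPM in #25 (0.98 ± 0.24, adjusted p = 0.014). Without Col-0 1 and slim1-cr 2 its adjusted p was 0.051. PORB (0.62 ± 0.17, adjusted p = 0.028) was not called without Col-0 2, Col-0 3, #25 1 or #25 3 (0.083 to 0.099).

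Hormone genes moved in small groups. Of all genes 12.5% were higher and 9.74% lower. In ethylene synthesis, the ACC synthase genes ACS7 (2.77 ± 0.50), ACS8 (2.66 ± 0.40), ACS11 (2.37 ± 0.50) and ACS6 (2.21 ± 0.22) rose, 4 of 10 tested genes, with adjusted p of 0.00269, 0.000958, 0.00712 and 7.70e-05, and 4 were called in all other fits. ACS6 was at 27.1, 34.0 and 23.2 CPM in Col-0 and at 118, 101 and 172 CPM in #25, while ACS7 did not exceed 2.75 CPM in any of the 6 libraries. Of 13 genes of ethylene signalling, SLIM1 included, 5 (38.5%) rose and none fell. Beside SLIM1 these were EIL1, the closest partner of EIN3 (0.75 ± 0.18, adjusted p = 0.012, and 0.66 with adjusted p = 0.053 without Col-0 3), the receptor genes ERS1 (0.52 ± 0.09, adjusted p = 0.00264) and ERS2 (0.85 ± 0.26, adjusted p = 0.038, called in 1 of the 6 fits with 1 library left out, that without Col-0 1), and EBF2, an F-box gene named after its values were seen and called in 2 of the 6 fits with 1 library left out. That count was 2 without Col-0 3, and 3 without #25 1, without #25 3 or with library size alone.

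For abscisic acid, CYP707A3, which breaks the hormone down, was at 7.09, 6.58 and 3.69 CPM in Col-0 and at 92.0, 102 and 110 CPM in #25 (4.13 ± 0.36, adjusted p = 3.45e-05). The receptor gene PYL5 rose by 1.24 ± 0.21 (adjusted p = 0.00188), and NCED3, of the first dedicated step of synthesis, by 1.56 ± 0.41 (adjusted p = 0.019, and 0.056, 0.064 and 0.067 without Col-0 1, Col-0 2 and #25 2). In all, 4 of 20 such genes were higher, ABF4 being the fourth (0.26, not called when any 1 of the 6 libraries was left out, adjusted p 0.072 to 0.164, nor with library size alone, 0.264, and with 81.6% of its length shared with a gene on the opposite strand), and 1 was lower, the phosphatase gene HAB1 (-0.63 ± 0.20, adjusted p = 0.044, and 0.096 to 0.154 without Col-0 2, Col-0 3, #25 1 or #25 3). The shares were 20% higher and 5% lower, against 12.5% and 9.74% of all genes. The count of higher genes was 2 without Col-0 1, without Col-0 2 and without #25 2, and 9 with DESeq2. Of 26 genes of salicylate synthesis and immunity, 7 (26.9%) rose and 1 (3.85%) fell. The gene that fell was FRK1, a flagellin-induced kinase gene (-1.48 ± 0.44, adjusted p = 0.036), whose call held only without Col-0 3 among the 6 fits with 1 library left out (0.061 to 0.133 in the others). Those that rose included the NADPH oxidase gene RBOHD (91.5 to 117 CPM in Col-0, 351 to 518 CPM in #25, 1.98 ± 0.26, adjusted p = 0.000421), CBP60G (1.87 ± 0.25, adjusted p = 0.000467), WRKY46 (1.85 ± 0.33, adjusted p = 0.0027) and WRKY18 (1.78 ± 0.41, adjusted p = 0.0105), while the output genes PR1, PR2 and PR5 were not called (-0.09, -0.01 and 0.21).

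Of 28 jasmonate genes 1 (3.57%) was higher and 1 (3.57%) lower, against 12.5% and 9.74% of all genes. With Col-0 1 and slim1-cr 2 both left out 2 were higher and 10 lower. The higher gene was ORA59, an ERF factor of jasmonate and ethylene (1.22 ± 0.35, adjusted p = 0.031), which was not called without Col-0 3, #25 1, #25 2 or #25 3 (0.057 to 0.085). JAR1, which makes the active jasmonoyl-isoleucine, was at 73.6, 346 and 568 CPM in Col-0 and at 51.9, 53.7 and 54.4 CPM in #25 (-2.63 ± 0.59, adjusted p = 0.00942). The #25 libraries were nearly equal and Col-0 1 lay close to them. The same shape, with Col-0 1 low and Col-0 2 and 3 high, was seen in RAP2.6, an ERF factor (2.89, 116 and 118 CPM in Col-0, 0.93 to 2.75 CPM in #25, -5.57 ± 1.41, adjusted p = 0.017), in MYB34, an indole glucosinolate regulator (10.4, 65.3 and 94.2 CPM, 4.54 to 10.1 CPM in #25, -2.98 ± 0.76, adjusted p = 0.018), and in TBL26 (9.19, 38.9 and 73.8 CPM, 4.14 to 6.38 CPM in #25, -2.88 ± 0.84, adjusted p = 0.032). Without Col-0 1 these differences were -3.102, -6.14, -3.47 and -3.36, all still called. The RAP2.6 call was lost without #25 1 or #25 3 (adjusted p 0.065 and 0.068), the MYB34 call without Col-0 3, #25 1 or #25 3 (0.065, 0.061 and 0.072), and the TBL26 call without any of the other 5 libraries (0.062 to 0.123). The part of the low jasmonate level of Col-0 1 in these differences was not tested.

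Other genes fell without such a spread in Col-0. QQS (AT3G30720, chromosome 3, 12349047 to 12349933), a small orphan gene that affects starch, was at 38.6, 31.5 and 18.0 CPM in Col-0 and at 2.64, 3.14 and 2.00 CPM in #25 (-3.50 ± 0.40, adjusted p = 0.000177). BRG2, a ring-finger relative of BOI, was at 41.1, 30.8 and 47.1 CPM in Col-0 and at 8.68, 7.00 and 9.24 CPM in #25 (-2.26 ± 0.23, adjusted p = 8.53e-05). CGA1, a GATA factor that responds to cytokinin and promotes chloroplast development, was at 11.1, 13.3 and 19.4 CPM in Col-0 and at 3.07 to 3.09 CPM in #25 (-2.24 ± 0.27, adjusted p = 0.000247). In these 3 genes every Col-0 library was above the highest #25 library. OFP1 (-2.89 ± 0.60), CYP706A6 (-2.17 ± 0.19), the zinc-finger homeobox genes HB34 (-1.13 ± 0.08) and HB23 (-1.28 ± 0.09), CYP71B26 (-1.58 ± 0.12) and the homeobox gene BLH6 (-1.05 ± 0.09) fell too, with adjusted p of 0.00628, 3.68e-05, 1.03e-05, 1.49e-05, 1.48e-05 and 3.61e-05. ARR6, a cytokinin response regulator, was at 9.55 to 11.8 CPM in Col-0 and 1.36 to 3.16 CPM in #25 (-2.12 ± 0.68, adjusted p = 0.047), but was not called when any 1 of the 6 libraries was left out (0.063 to 0.147). HB34 was at 48.3 to 54.4 CPM in Col-0 and 21.9 to 25.1 CPM in #25, and HB23 at 24.1 to 26.3 and 10.2 to 10.8 CPM.

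Cold regulators split. CBF1 and CBF2, which switch on the cold regulon, were at 1.47 to 1.66 and 2.93 to 3.24 CPM in Col-0 and at 9.22 to 14.1 and 14.8 to 17.2 CPM in #25, differences of 2.98 ± 0.35 (adjusted p = 0.000204) and 2.402 ± 0.18 (adjusted p = 1.65e-05). Their neighbour CBF3 was lower, at 3.52 to 6.11 CPM in Col-0 and 1.79 to 2.66 CPM in #25 (-1.24 ± 0.29, adjusted p = 0.012, and 0.051, 0.050 and 0.051 without Col-0 3, #25 2 and #25 3). CBF3 was named after its values were seen. Of the 16 members of the list 4 (25%) rose and 2 (12.5%) fell, against 12.5% and 9.74% of all genes. The others were CBF4 (3.98 ± 0.64, adjusted p = 0.0015), DDF1 (3.42 ± 0.88, adjusted p = 0.018, and 0.051 without #25 3) and, lower, COR27 (-1.26 ± 0.32, adjusted p = 0.017, and 0.055 to 0.068 without Col-0 2, Col-0 3, #25 1 or #25 3), the last also named after its values were seen. Of 22 flowering time regulators, 3 (13.6%) rose and 1 (4.55%) fell, against 12.5% and 9.74% of all genes. The floral repressor gene RAV2 (TEM2) was at 27.4, 36.9 and 22.7 CPM in Col-0 and at 388, 321 and 399 CPM in #25 (3.67 ± 0.22, adjusted p = 4.33e-06), and TEM1 at 51.3 to 81.9 and 185 to 235 CPM (1.71 ± 0.25, adjusted p = 0.000741). The florigen relative TSF was below 0.15 CPM in every Col-0 library and at 0.26 to 1.75 CPM in #25 (3.43 ± 0.96, adjusted p = 0.026), and was not called without Col-0 1, Col-0 2 or #25 2 (0.075 to 0.113). The repressor gene SNZ fell by 1.35 ± 0.29 (adjusted p = 0.00732), and the florigen gene FT differed by 0.80 and was not called. Of 29 flavonoid and anthocyanin genes, 1 (3.45%) rose (UGT73C6) and 3 (10.3%) fell, with a median of -0.61. The share that fell was near the 9.74% of all genes. Those 3 were 4CL1, UGT78D2 (-0.98 ± 0.24, adjusted p = 0.014, and 0.058 and 0.057 without Col-0 3 and #25 3) and MYB111 (-1.18 ± 0.33, adjusted p = 0.026, and 0.058 to 0.092 without Col-0 1, Col-0 3, #25 1 or #25 2). The phenylpropanoid gene 4CL1 was at 91.5 to 156 CPM in Col-0 and 58.1 to 66.4 CPM in #25 (-1.06 ± 0.20, adjusted p = 0.00367). The number that fell was 7 without Col-0 1, 1 without Col-0 3 and 6 with library size alone. MYB75, which activates anthocyanin genes, was at 0.69, 3.09 and 5.16 CPM in Col-0 and at 1.14, 2.75 and 1.08 CPM in #25, overlapping and not called (adjusted p = 0.618). In indole glucosinolates, MYB51 (2.27 ± 0.36, adjusted p = 0.00144) and CYP81F2 (2.15 ± 0.31, adjusted p = 0.000818) rose while MYB34 and MYB122 fell. In that list of 12 genes 4 (33.3%) rose and 2 (16.7%) fell. None of 21 aliphatic glucosinolate genes was called.

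Markers of other cell types were checked over the same libraries. None of 15 flower, 4 root or 14 xylem markers was called. Among 8 shoot meristem markers 1 (12.5%) was higher and 1 (12.5%) lower. In each of 3 further lists 1 marker was lower: phloem (7 tested, 14.3%), trichome and root hair regulators (7, 14.3%) and proliferating cells (23, 4.35%). Of all genes 12.5% were higher and 9.74% lower. With Col-0 1 and slim1-cr 2 left out, 6 of the flower markers were called higher in #25, and their part in the other results was not tested. Of 11 guard cell markers 3 (27.3%) were lower: MYB60, KAT2 and SPCH, named after their values were seen. KAT2 and SPCH were called in 3 and 4 of the 6 fits with 1 library left out. The number of guard cell markers that were lower was 1 without Col-0 3 and 6 with library size alone. The summed level of the guard cell markers was 81.1 to 92.7 CPM in Col-0 and 56.8 to 71.6 CPM in #25. In whole rosettes, fewer cells of a type and less RNA per cell cannot be told apart. Root markers summed to 74.2 to 77.1 CPM in Col-0 and 49.3 to 71.7 CPM in #25, and the single seed storage gene tested was at 0.09 to 6.37 CPM and 0.05 to 0.59 CPM.

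The other overexpression line places #25. Between #25 and #17 at 37 DAS, 792 genes (3.90%) were higher and 882 (4.35%) lower in #25. Those counts depended on #17 3: without it they were 2915 and 2449, and with any other library of the 6 left out they were 221 to 491 and 205 to 377. Of the 33 touch genes, 15 were higher in #25 than in #17 and none was lower, with a median of 1.07. Among the named genes higher in #25 and called in every fit with 1 library left out were CBF1 (2.54, adjusted p = 0.00395), ACS6 (2.35, adjusted p = 0.000873), WRKY46 (2.197, adjusted p = 0.00637), SZF1 (2.02, adjusted p = 0.00395), NUDT4 (2.00, adjusted p = 0.00447), ERF6 (1.95, adjusted p = 0.00211), CBF2 (1.90, adjusted p = 0.000873), WRKY33 (1.57, adjusted p = 0.00562) and WRKY53 (1.49, adjusted p = 0.00524). For BRG2 (-2.03, adjusted p = 0.00179), HB23 (-0.73, adjusted p = 0.00328) and HB34 (-0.65, adjusted p = 0.00242) the level was lower in #25 than in #17. ACS6 was at 25.6 ± 4.42 CPM, WRKY53 at 43.4 ± 4.87 CPM and BRG2 at 33.8 ± 9.09 CPM in #17 (SD, n = 3), and each of these means lay within the range of the Col-0 libraries. None of the 14 sulfur genes differed between the lines at this threshold, and LSU1 differed by 0.14 (adjusted p = 0.729).

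The comparison was also made on the other days. At 30 DAS, 719 genes (3.55%) were higher and 574 (2.83%) lower in #25, and at 44 DAS 4682 (22.8%) and 4758 (23.2%). Of the 2500 genes higher at 37 DAS that were also tested at 30 DAS, 127 (5.08%) were higher then, 17.8% of the 714 called at 30 DAS. Of 2532 tested at 44 DAS, 602 (23.8%) were higher and 562 (22.2%) lower, near the 22.4% and 23.56% of all genes tested on both days. Of 1966 genes lower at 37 DAS, 585 (29.8%) were higher and 346 (17.6%) lower at 44 DAS.

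The change of the difference between days was tested itself. From 30 to 37 DAS it moved up for 1755 genes (8.34%) and down for 1367 (6.50%), and from 37 to 44 DAS up for 3817 (18.1%) and down for 5681 (27.0%). Of the 33 touch genes, 28 moved up from 30 to 37 DAS and 25 moved down from 37 to 44 DAS, none the other way, and their median difference was -0.11 at 30 DAS and 0.38 at 44 DAS. TCH4 differed by -0.48 at 30 DAS (adjusted p = 0.499) and by -1.21 at 44 DAS (adjusted p = 0.041). Of the 26 clock genes, 12 moved down and 4 up from 30 to 37 DAS. FKF1 differed by 2.90 at 30 DAS (adjusted p = 0.00771) and 1.15 at 44 DAS (adjusted p = 0.00486), and PRR5 by 1.89 (adjusted p = 0.00655) and -1.20 (adjusted p = 0.00358). LSU1 differed by 0.26 at 30 DAS (adjusted p = 0.713) and by 3.70 at 44 DAS (adjusted p = 1.18e-05). All 19 light-harvesting genes were lower at 44 DAS.

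**Figure D4:**
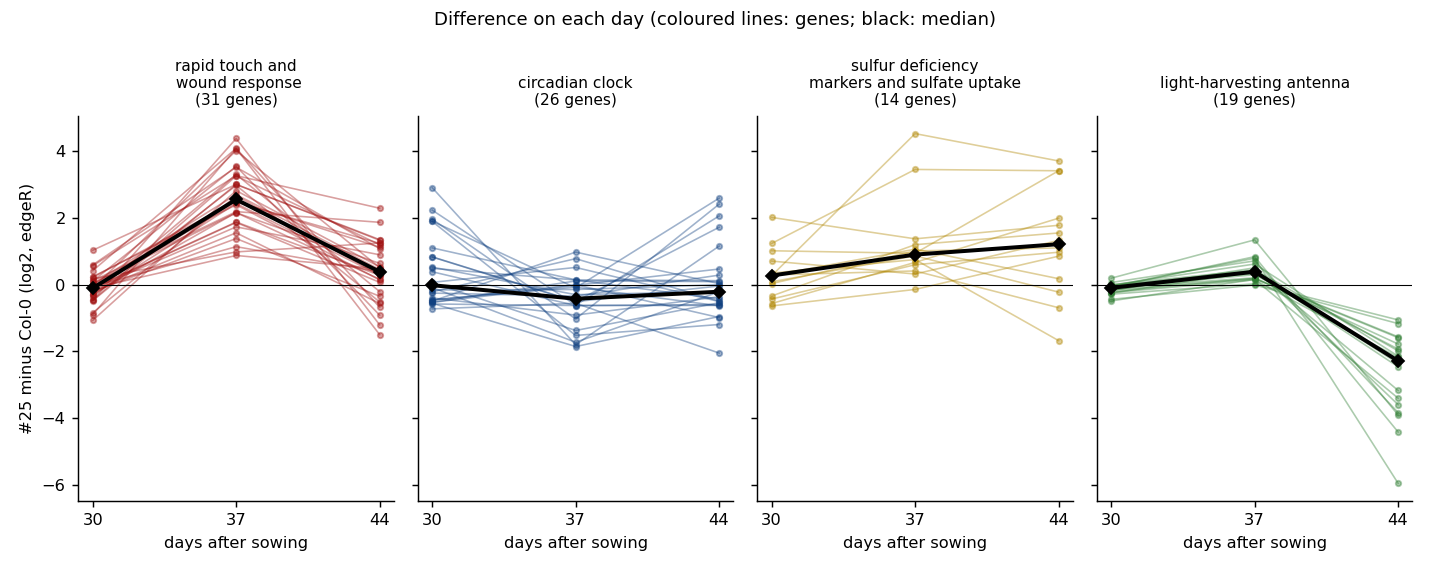
Difference between #25 and Col-0 (log2, edgeR, vertical axis) at 30, 37 and 44 DAS (horizontal axis) for the genes of 4 lists tested on all 3 days (31 touch, 26 clock, 14 sulfur and 19 light-harvesting genes); coloured lines are genes and black diamonds medians. The touch genes stand highest at 37 DAS. The light-harvesting genes have medians of -0.10 at 30 DAS, 0.38 at 37 DAS and -2.28 at 44 DAS.

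The direction of ageing in Col-0 was read from its 30 and 44 DAS libraries, which are independent of the 37 DAS libraries. There 6986 genes (33.2%) rose and 7164 (34.0%) fell from 30 to 44 DAS. Of the 2541 genes higher in #25 at 37 DAS, 1595 (62.8%) rose with age in Col-0 and 364 (14.3%) fell, against 33.7% and 34.9% of all 20296 genes. These 1595 were 23.3% of the 6849 that rose. Of the 1977 lower genes, 894 (45.2%) fell with age and 456 (23.1%) rose. Of the touch list 28 of 33 rose with age, among them TCH4 by 3.46 (adjusted p = 6.04e-07) and HSPRO2 by 3.86 (adjusted p = 5.09e-09), and of the jasmonate list 26 of 28 rose, of which 1 was higher in #25 at 37 DAS. LSU1 and LHY, higher in #25, fell with age in Col-0 by 1.403 (adjusted p = 0.000771) and 0.69 (adjusted p = 0.00228).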

How the data were processed

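RNA was extracted from rosettes, and poly(A) strand-specific libraries were sequenced. The authors mapped the reads to TAIR10 with CLC Genomics Workbench and deposited raw counts per Araport11 gene, which are the values analysed here. A deposited table of normalized counts, a signal scaled by the authors with DESeq2 1.40.2 size factors, was not used. No column was left unmapped.

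The counts were tested with edgeR 4.0.16 (R 4.3.3, limma 3.58.1) with TMM factors, filterByExpr and the robust quasi-likelihood F test over the 12 libraries of 37 DAS, with Benjamini-Hochberg adjustment and a threshold of 0.05. The fits held 15 libraries at 30 DAS (EV included), 12 at 44 DAS and all 39 for changes between days. The SE is the log2 difference over the square root of F. Genes were named if they were SLIM1, among the 12 highest or 12 lowest called genes that carry a symbol, average over 1 on the log2 CPM scale and show 3 #25 libraries apart from the 3 of Col-0, among the 5 lowest adjusted p in each direction under the same conditions, among the 4 largest called members of a list, or named by the study. Not every gene that met the rule is described, and others are said to be named after their values were seen. The members and lists were chosen with earlier results of these data known. Of 761 list entries, 738 matched a symbol. Replicates of a group differed by more than sampling noise (chi-square per degree of freedom 16.7 to 162). Alternatives were RLE factors, library size alone, DESeq2 1.42.0, other filters, other sets of libraries, a replicate block, and each library left out in turn. The scripts were tested on simulated data.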

Additional observations from a re-analysis of the deposited data

Results flagged for a closer look

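The following genes are those named above whose #25 v Col-0 difference changed by more than 3 on the log2 scale (8-fold) between days, with an adjusted p under 0.05 for the change itself in edgeR's fit over 39 libraries. All values are changes of that log2 difference.

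From 30 to 37 DAS the difference moved up in 18 genes. Among them were PHI-1 (5.62), DREB26 (5.01), TCH4 (4.88), NUDT4 (4.22), SZF1 (4.14), STZ (3.75), ERF6 (3.69), HSPRO2 (3.47) and BT2 (3.68). LSU1 moved by 4.28, the floral repressor gene RAV2 by 4.18, CYP707A3 by 3.57 and PUP14 by 3.15. The wall enzyme genes XTH33, XTH23 and XTH17 moved by 3.63, 3.52 and 3.36, and the ethylene synthesis genes ACS7 and ACS11 by 3.07 and 3.02. It moved down in 7 genes: MYB34 (-3.14), PRR5 (-3.37), FKF1 (-4.66), CYP81F4 (-4.96), COR27 (-4.99), ADT6 (-6.45) and RAP2.6 (-7.21).

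From 37 to 44 DAS it moved up in 5 genes, ADT6 (9.19), TBL26 (4.21), ELF4 (3.37), CBF3 (3.31) and MYB75 (3.03). It moved down in 19 genes. Of these, CYP707A3 (-3.17), XTH33 (-3.25), SZF1 (-3.55), XTH23 (-3.96), RAV2 (-4.20), HSPRO2 (-4.51), ERF6 (-4.81), ACS11 (-4.90), XTH17 (-5.20), PHI-1 (-5.43), DREB26 (-5.62), TCH4 (-5.63) and BT2 (-9.80) are also listed for 30 to 37 DAS; the 2 changes share the libraries of 37 DAS. The others were WRKY22 (-3.24), XTH19 (-3.32), ACS8 (-4.26), the light-harvesting genes LHCB2.3 (-5.29) and LHCB1.1 (-5.30), and CML30 (-10.72). The values of ADT6 and CML30 come from counts at or near 0 on 1 side, so their size depends on the prior count of the fit, and both genes lie almost within or within another gene.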

How the results depend on the processing

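For #25 v Col-0 at 37 DAS (2541 higher, 1977 lower), RLE factors, DESeq2, other filters, other sets of libraries and the block kept both counts within 1.5 times, but with library size alone 3334 genes were lower. With 1 library left out 1753 to 2483 were higher and 1227 to 2098 lower, with fewest of both without Col-0 3. A fit without Col-0 1 and slim1-cr 2, chosen after seeing the data, gave 2592 and 2334. For #25 v #17 (792 and 882), library size alone gave 1404 lower, and with 1 library left out 221 to 2915 were higher and 205 to 2449 lower. The change from 30 to 37 DAS (1755 and 1367) became 1137 and 3087 with library size alone, and that from 37 to 44 DAS (3817 and 5681) became 7544 and 3388. The cause of these shifts was not tested, but library size alone also lowered the median of all genes at 37 DAS from -0.01 to -0.14.

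Deviations from the group mean of Col-0 and #25 libraries with the same number correlated at -0.18, -0.05 and -0.32. With 3 libraries a group such deviations depend on each other, so these values cannot decide whether the replicate numbers mark shared batches. With the replicate block, 2365 genes were higher and 1703 lower, and in #25 v #17 517 were lower. Of the 141 genes named, 12 lost their call under the block, 6 with library size alone, 9 in the fit without Col-0 1 and slim1-cr 2, and 28 in at least 1 fit with a library left out, and DESeq2 called 4 more. Differences that changed sign belonged to genes that were not called: PR1 (-0.66 to 0.16 with 1 library left out), PR2 (-0.70 to 0.39, and 0.0063 with all 39 libraries), PR5 (-0.22 to 0.43) and CCA1 (-0.022 with library size alone). With 3 libraries a group and plants sampled by day, genotype and developmental stage cannot be told apart.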

Other observations

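Nutrient lists outside sulfur were read beside the shares of all genes. Of 28 genes of nitrate sensing, transport and reduction 5 (17.9%) were higher and 2 (7.14%) lower in #25 than in Col-0, with a median of -0.05. Of all genes 12.5% were higher and 9.74% lower, with a median of -0.01. The repressor gene LBD37, a nitrogen-responsive LOB factor, was at 50.9, 52.9 and 46.2 CPM in Col-0 and at 128, 99.4 and 132 CPM in #25, without overlap (1.26 ± 0.23, adjusted p = 0.00266 in edgeR's quasi-likelihood test). BT1, the relative of BT2, was at 18.7, 54.2 and 66.7 CPM in Col-0 and at 145, 116 and 174 CPM in #25 (1.64 ± 0.48, adjusted p = 0.031), and its call held in 2 of the 6 fits with 1 library left out (highest adjusted p 0.094). Of 14 phosphate starvation genes 3 (21.4%) were higher and none lower. MGD2, which makes the galactolipids that replace phospholipids, was at 4.14 to 5.30 CPM in Col-0 and 8.92 to 9.96 CPM in #25 (0.97 ± 0.22, adjusted p = 0.00872). GDH1, a glutamate dehydrogenase gene, rose by 0.84 ± 0.12 (adjusted p = 0.000827), 1 of 2 genes (8.70%) called higher among 23 of nitrogen remobilization and amino acid breakdown.

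Of 11 genes of heat shock and unfolded protein 3 (27.3%) were higher and 1 (9.09%) lower, against 12.5% and 9.74% of all genes. Of these, DREB2A, a factor of drought and heat, was at 6.62, 13.8 and 6.85 CPM in Col-0 and at 27.0, 36.9 and 35.0 CPM in #25 (1.86 ± 0.27, adjusted p = 0.000866). HSFA7A rose from 0.81 to 1.26 CPM in Col-0 to 3.27 to 4.56 CPM in #25 (1.802 ± 0.26, adjusted p = 0.000704). HSF A4A, a heat shock factor that is not in this list, was at 27.8, 30.6 and 20.6 CPM in Col-0 and at 89.4, 98.3 and 98.0 CPM in #25 (1.85 ± 0.15, adjusted p = 1.92e-05). All 3 were without overlap. Of 16 genes of wax and plastid fatty acid synthesis 2 (12.5%) were higher and 1 (6.25%) lower, near the 12.5% and 9.74% of all genes. MYB96, which activates wax genes, rose from 16.6 to 20.4 CPM in Col-0 to 32.5 to 44.7 CPM in #25 (0.99 ± 0.18, adjusted p = 0.0028). EXPA16, the only gene called among 11 expansins, fell from 5.07 to 7.15 CPM to 2.69 to 3.20 CPM (-1.05 ± 0.15, adjusted p = 0.000873).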
